A study of Mus musculus with 8 samples.

Results

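The 10 genes described here encode scaffold proteins of the postsynaptic density, the protein mat under excitatory synapses. They are Shank1, Shank2 and Shank3, Dlg1, Dlg2, Dlg3 and Dlg4, Dlgap1, and Homer2 and Homer3. They were taken by name from a table of 15519 genes, and all 10 were present in it. The table holds nuclear RNA of hippocampal pyramidal cells of wild-type (WT) mice, in 8 libraries. The cells had been found to be place cells, whose firing depends on where the animal is, by 2-photon imaging in navigating mice, and were then phototagged (2P-NucTag) so that their nuclei could be collected. In 4 libraries they were labelled Day 0 place cells and in 4 Recurring place cells, and the labels define these classes no further. Each library's title names a different mouse. Age, sex, the agent used for tagging and the number of nuclei per library are not given in the labels. Imaging, phototagging and isolation of nuclei were common to both groups, so no untagged or inactive cells serve as a background. The p-values below measure the spread between these 8 libraries, which may be partly technical.

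The scaffold is built in layers. Dlg proteins, of which Dlg4 encodes PSD-95, sit closest to the membrane and hold glutamate receptors and adhesion molecules through PDZ domains. Dlgap proteins bind the guanylate kinase-like domain of the Dlg proteins on one side and the PDZ domain of the Shank proteins on the other. Shank proteins form the deeper layer, and Homer proteins join them to group I metabotropic glutamate receptors and to calcium release channels of the endoplasmic reticulum.

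No scaffold gene separated the groups. Of the 10 genes, 7 had a lower and 3 a higher mean in Recurring cells, and limma called 0 of them at an adjusted p of 0.05. It called 0.0% of the 11078 genes tested over the whole table, and the lowest adjusted p among the 10 genes was 0.981. At an unadjusted p under 0.05 there was also none of the 10, where 3.62% of all tested genes passed, 1.74% lower and 1.88% higher in Recurring cells. The voom fit of limma called 0 genes as well, with 4.68% at an unadjusted p under 0.05. The Day 0 and Recurring libraries overlapped for all 10 genes, where 2.41% of tested genes had groups that did not overlap, 1.24% with Recurring cells higher and 1.17% with them lower. The median difference of the 10 genes, Recurring minus Day 0, was -0.36 in log2(normalized count + 1), against 0.00 over all tested genes. Beside the 7 of 10 genes with a lower mean stood 49.9% of all tested genes. A normalized count is the number of reads divided by the size factor of the library. To be tested a gene had to reach 10 normalized counts in 4 libraries, and all 10 genes did. Reads were found in all 8 libraries for 9 of the 10 genes and for 54.4% of all tested genes, and Homer3 had reads in 6. In such bulk libraries fewer cells that express a gene and less of its RNA per cell cannot be told apart.

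Depth ranged from 8374986 to 14887866 reads per library, and 10718 to 13807 genes were detected. Of the reads of a library, the 10 genes together took 0.239% ± 0.0174 in Day 0 cells and 0.211% ± 0.0368 in Recurring ones (SD, n = 4, 2-sided exact permutation p = 0.229, adjusted p = 0.8 over 12 library measures). The pyramidal label was checked against 14 markers of CA1 and hippocampal pyramidal neurons. Their summed normalized count was 36829 to 48282 in Day 0 and 36510 to 53947 in Recurring cells, with at most 1 of the 14 at 0 in a library. Slc17a7, the vesicular glutamate transporter, stood between 1252 and 4306 normalized counts in the 8 libraries. Markers of other cells were uneven, and their highest sums stood in libraries of both groups. The 10 interneuron markers in the table summed to 584 to 3168 in Day 0 and 264 to 9821 in Recurring cells, highest in Recurring replicate 2. The 13 astrocyte markers summed to 3673 to 13861 and 4294 to 21761, highest in Recurring replicate 1, and the 5 microglia markers to 213 to 707 and 507 to 6056, highest in Recurring replicate 4. Day 0 replicate 4 had the highest sums for the markers of oligodendrocytes, of their precursors and of CA3 pyramidal cells. In that order these summed to 1559 to 12183, 311 to 2786 and 3132 to 16705 in Day 0, and to 1457 to 7661, 566 to 1625 and 5583 to 13005 in Recurring cells. In Day 0 replicate 4, 2 of the 10 oligodendrocyte, 2 of the 3 precursor and 4 of the 7 CA3 markers were at 0. Its precursor sum came from Tnr, at 2780 reads, and its CA3 sum mostly from Chgb, at 16473 reads.

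**Figure D1:**
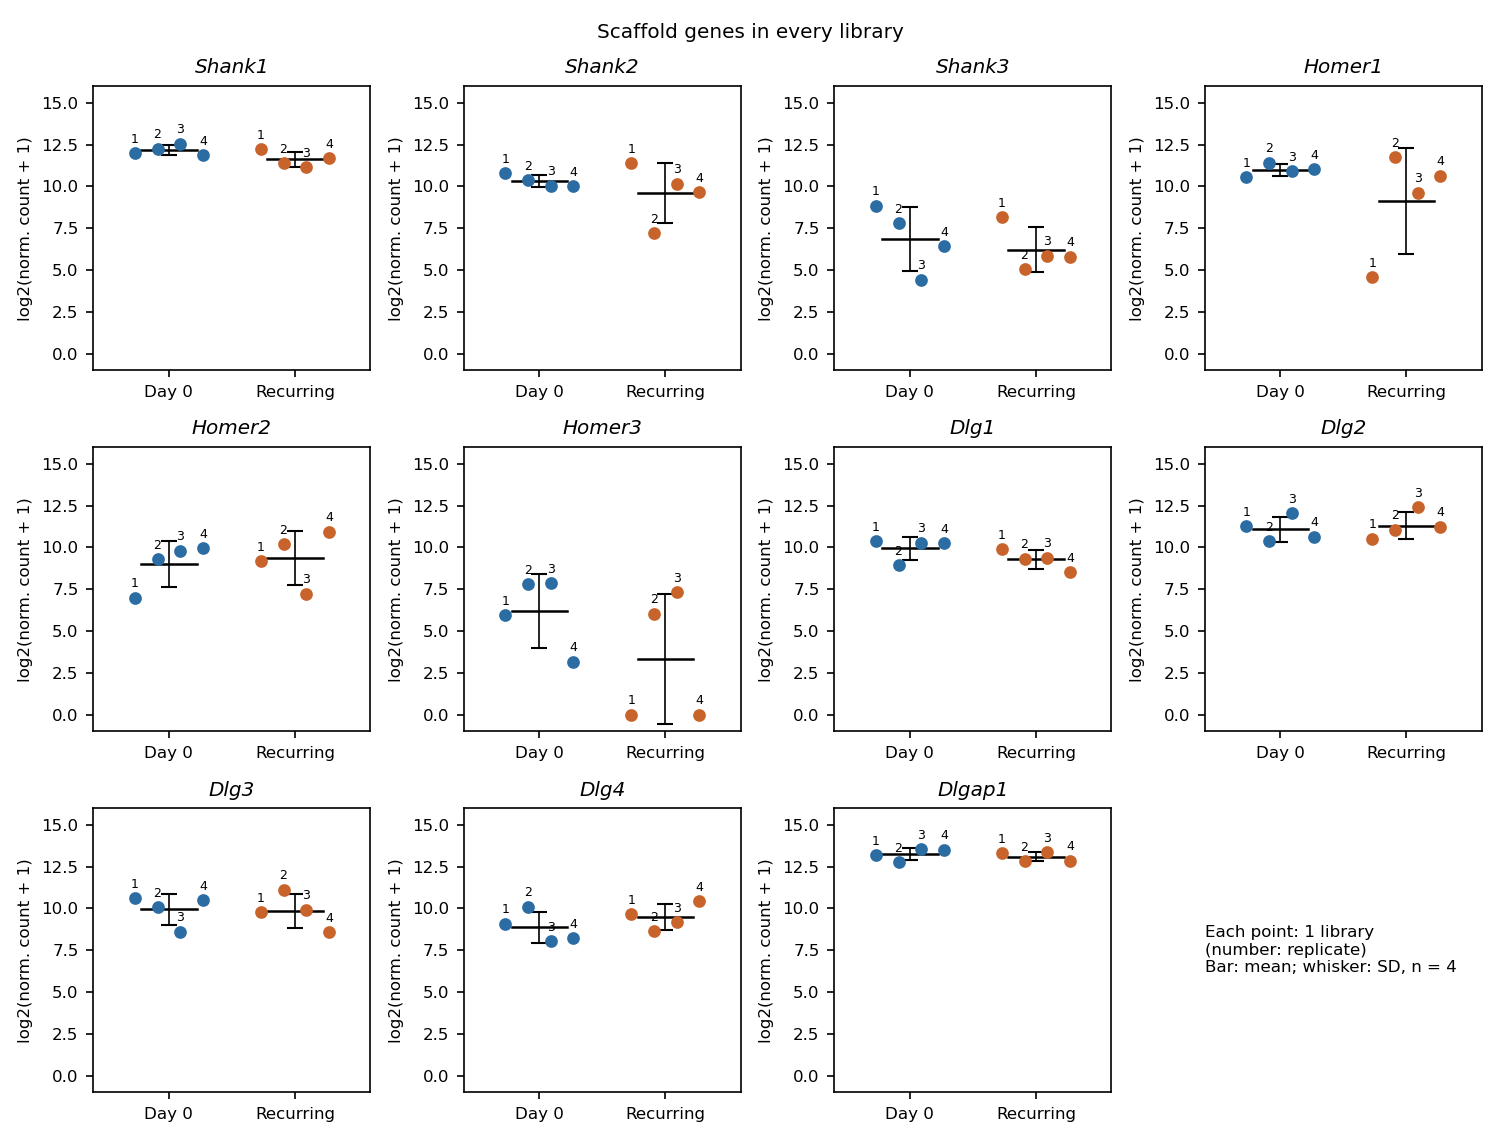
Each panel shows 1 of the 10 scaffold genes, or Homer1 of the same family, in log2(normalized count + 1), with 1 numbered point per library, a bar at the group mean and a whisker of 1 SD (n = 4). The groups overlap in every panel, Dlgap1 and Shank1 vary least, and Homer3 stands at 0 in Recurring replicates 1 and 4.

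Levels were compared between genes per kilobase of exon, with exon lengths from GENCODE M21, which annotates GRCm38, while the authors' build was GRCm39. Each length joins the exons of all annotated transcripts of a gene, so the order of genes depends in part on this choice. Whether the authors counted reads in introns is not given in the sources used here. On this scale Dlgap1 was highest, at 524 ± 110 normalized counts per exon kilobase (SD over 8 libraries), and Shank1 came next at 377 ± 118. Dlgap1 was above Shank1 in 7 of 8 libraries, and Shank1 above Dlg3, the gene after it, in 7 of 8. In the middle of the order, neighbouring genes did not differ beyond their spread. Dlg3 stood at 191 ± 106, Dlg2 at 161 ± 89.5, Shank2 at 116 ± 68.9, Dlg1 at 80.0 ± 34.3, Homer2 at 64.1 ± 47.0 and Dlg4 at 50.4 ± 29.9, and each gene was above its lower neighbour in 4 or 5 of the 8 libraries, with Homer1 at 147 ± 89.0 placed between Dlg2 and Shank2. Homer3 at 27.1 ± 28.3 and Shank3 at 16.5 ± 17.1 were lowest, with Dlg4 above Homer3 in 6 of 8 libraries and Homer3 above Shank3 in 4 of 8.

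The Shank genes had lower means in Recurring cells, all 3 of them, and none passed the test. Shank1 stood at 4091, 4861, 6007 and 3741 normalized counts in Day 0 replicates 1 to 4 and at 4797, 2650, 2290 and 3269 in Recurring replicates 1 to 4. The 3 lowest libraries were Recurring replicates 2, 3 and 4, while Recurring replicate 1 lay inside the Day 0 range. The means were 12.17 ± 0.30 and 11.61 ± 0.46 in log2 (SD, n = 4), a difference of -0.56 (SE 0.36, 95% interval -1.32 to 0.21, limma adjusted p = 0.981). Of the 10 genes Shank1 had the smallest unadjusted p, 0.142.

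Shank2 stood at 1761, 1324, 1047 and 1040 in Day 0 and at 2691, 145, 1148 and 809 normalized counts in Recurring cells. The Day 0 libraries lay close together, and the Recurring libraries held both the highest value, in replicate 1, and the lowest, in replicate 2. The log2 SD was 0.36 in Day 0 and 1.76 in Recurring cells, and the difference of the means was -0.70 (SE 0.76, 95% interval -2.31 to 0.91, limma adjusted p = 0.987). Without Recurring replicate 2 the difference was 0.10. That library was also highest in the 10 interneuron markers, with 9821 normalized counts in sum and only Vip of the 10 at 0, and the part of this in the Shank2 value was not tested.

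Shank3 was the scarcest Shank gene, at 461, 221, 20.3 and 84.2 in Day 0 and 283, 32.3, 57.2 and 54.8 normalized counts in Recurring cells. Its highest libraries were Day 0 replicate 1, Recurring replicate 1 and Day 0 replicate 2, so both groups held high and low values. The highest library was 22.7 times the lowest, and the difference of -0.65 had an SE of 1.80 (95% interval -4.45 to 3.15, limma adjusted p = 0.998). Without Day 0 replicate 1 it was -0.004.

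Shank1 dominated its family. Per exon kilobase, Shank1 made up 75.7% ± 8.48 of Shank RNA in Day 0 and 75.2% ± 14.4 in the Recurring group (SD, n = 4) and led in all 8 libraries, with a lowest share of 61.9%. Shank2 followed at 20.7% ± 5.17 and 22.6% ± 13.4, and Shank3 at 3.64% ± 3.45 and 2.22% ± 1.33. The group means of each of the 3 shares differed by less than the SD of the Day 0 libraries.

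**Figure D2:**
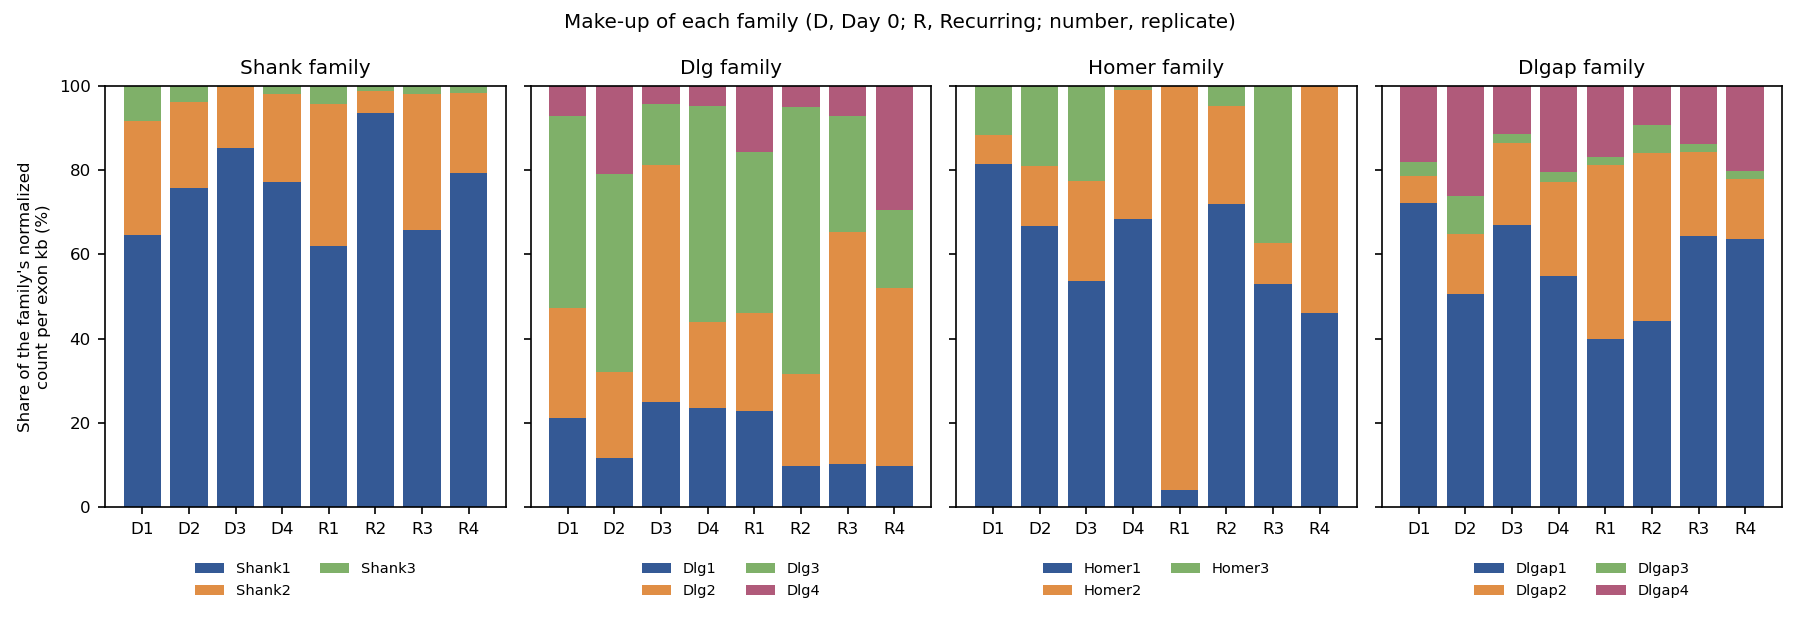
Stacked bars give the share of each gene in its family's normalized counts per exon kilobase, in percent, for the 8 libraries (D, Day 0; R, Recurring). Shank1 leads in all 8 libraries, Dlg2 or Dlg3 leads its family in each, and Homer1 is at 3.99% of its family in Recurring replicate 1.

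The Dlg family was split, with 2 of 4 genes lower and 2 higher in mean. Dlg1, which encodes SAP97 and is involved in receptor trafficking, stood at 1307, 488, 1250 and 1212 normalized counts in Day 0 and at 949, 635, 665 and 368 in Recurring cells. The 3 highest libraries were Day 0 replicates 1, 3 and 4, and Day 0 replicate 2 lay below 3 of the 4 Recurring libraries. The log2 means were 9.95 ± 0.68 and 9.28 ± 0.56 (SD, n = 4), a difference of -0.68 (SE 0.66, 95% interval -2.07 to 0.71, limma adjusted p = 0.981). Without Day 0 replicate 2 it was -1.02 and without Recurring replicate 4 it was -0.42, in both cases short of the threshold.

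Dlg2, a close relative of PSD-95 that also clusters receptors and potassium channels, stood at 2459, 1308, 4259 and 1598 in Day 0 and at 1462, 2123, 5403 and 2420 normalized counts in Recurring cells. One library of each group, replicate 3 in both, stood well above the rest. The difference was 0.22 (SE 0.50, 95% interval -0.84 to 1.29, limma adjusted p = 0.998), and it was -0.14 without Recurring replicate 3 and -0.02 without Day 0 replicate 2.

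Dlg3, which encodes SAP102, a scaffold prominent in developing synapses and X-linked, stood at 1544, 1081, 390 and 1442 in Day 0 and at 863, 2233, 968 and 382 normalized counts in Recurring cells. The lowest libraries of the groups, Day 0 replicate 3 and Recurring replicate 4, were nearly level, and the highest was Recurring replicate 2. The log2 means were 9.94 ± 0.92 and 9.85 ± 1.04 (SD, n = 4), a difference of -0.10 (SE 0.69, 95% interval -1.56 to 1.36, limma adjusted p = 0.998). Its sign turned when Day 0 replicate 1, Day 0 replicate 4 or Recurring replicate 4 was left out, with values of 0.10, 0.09 and 0.33.

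Dlg4 had the highest positive difference of the 10 genes. PSD-95, its product, is the best-known scaffold of mature excitatory synapses. The normalized counts were 542, 1092, 264 and 297 in Day 0 and 802, 393, 581 and 1377 in Recurring cells. The lowest 2 libraries were Day 0 replicates 3 and 4 and the highest was Recurring replicate 4, but Day 0 replicate 2 came second. The difference was 0.61 (SE 0.78, 95% interval -1.05 to 2.26, limma adjusted p = 0.998), and it ranged from 0.29 to 1.02 as each library was left out. With library weights it was 0.08 (SE 0.73). Recurring replicate 4, the highest in Dlg4 and Homer2 and the lowest in Dlg1 and Dlg3, was also the highest in the 5 microglia markers, with 6056 normalized counts in sum and none of the 5 at 0, and the part of this in those values was not tested.

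Within the Dlg family the leading gene differed between libraries. Dlg3 held the highest share per exon kilobase in 5 libraries and Dlg2 in the other 3, which were Day 0 replicate 3 and Recurring replicates 3 and 4. This rests on exon lengths of 5.84 kb for Dlg3 and 16.28 kb for Dlg2. Before division by length, Dlg2 was above Dlg3 except in Recurring replicate 2, at 2123 against 2233 normalized counts. Per exon kilobase, Dlg1 made up 20.3% ± 6.05 in Day 0 and 13.2% ± 6.46 in Recurring cells, and Dlg4 9.24% ± 7.90 and 14.3% ± 11.1 (SD, n = 4). Both ranges overlapped, with Dlg1 at 11.6% in Day 0 replicate 2 and 22.9% in Recurring replicate 1.

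Dlgap1, the link between the Dlg and Shank layers, was the most abundant and the most even of the 10 genes. It stood at 9181, 6938, 11784 and 11741 normalized counts in Day 0 and at 10014, 7308, 10556 and 7421 in Recurring cells. The highest library was 1.70 times the lowest, and each group held both high and low libraries. The log2 means were 13.24 ± 0.36 and 13.09 ± 0.28 (SD, n = 4), a difference of -0.16 (SE 0.28, limma adjusted p = 0.998). Its 95% interval, -0.74 to 0.43, corresponds to 0.600 to 1.34 times the Day 0 level. It was the only one of the 10 intervals that lay within 1 log2 unit of 0, as 1.98% of all tested genes did. Without a variance trend in the fit the SE of Dlgap1 was 0.59, so the width of this interval depended on that setting.

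The other Dlgap genes were read from the list of Dlg and Dlgap partners. Dlgap2 stood at 275, 667, 1190 and 1638 normalized counts in Day 0 and at 3566, 2281, 1131 and 574 in Recurring cells. The 2 highest libraries were Recurring replicates 1 and 2, and the other 2 Recurring libraries lay inside the Day 0 range. The difference was 0.97 (SE 0.71, 95% interval -0.53 to 2.47, limma adjusted p = 0.981). Dlgap3 differed by -0.35 (SE 1.52) and Dlgap4 by -0.26 (SE 0.55). Dlgap1 held 50.7% to 72.3% of the family per exon kilobase in Day 0 and 39.9% to 64.3% in Recurring cells. Dlgap2 held 15.6% ± 7.08 and 28.9% ± 13.8 (SD, n = 4). Dlgap1 led in 7 of 8 libraries, and in Recurring replicate 1 Dlgap2 was just above it, at 41.3% against 39.9%.

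Homer3 was the most variable of the 10 genes, with a log2 SD of 3.30 over the 8 libraries, followed by Shank3 at 1.57 and Homer2 at 1.39. Homer2 stood at 127, 627, 891 and 980 normalized counts in Day 0 and at 581, 1160, 149 and 1956 in Recurring cells. Each group had 1 low library, Day 0 replicate 1 and Recurring replicate 3, and the other values ran from 581 to 1956. The difference was 0.37 (SE 0.93, 95% interval -1.59 to 2.34, limma adjusted p = 0.998), and it was -0.31 without Day 0 replicate 1 and -0.14 without Recurring replicate 4.

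Homer3 was at 61.0, 223, 231 and 8.02 normalized counts in Day 0 and at 0, 64.6, 158 and 0 in Recurring cells. In reads these were 82, 280, 193 and 8 against 0, 80, 149 and 0. A count of 0 reads allows up to 3 reads, or 1.86 normalized counts in Recurring replicate 1 and 3.04 in Recurring replicate 4, for counting error only. The difference of -2.86 had the widest interval of the 10 genes, -8.02 to 2.30 (SE 2.44, limma adjusted p = 0.981), and the pseudocount set its size, at -3.34 with 0.5 and -1.46 with 10. In the annotation 874 of the 3440 exon bases of Homer3 are shared with Ddx49 on the opposite strand. Strand use in counting is not given in the sources used here, so reads of the 2 genes may not be separable.

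Homer1 belongs to the same family but not to the 10 genes. Its short, activity-induced form and its long scaffold forms cannot be told apart in a count per gene. It stood at 1480, 2752, 1908 and 2085 normalized counts in Day 0 and at 22.9, 3425, 782 and 1594 in Recurring cells. Recurring replicate 1 was far below the rest and Recurring replicate 2 the highest of all. The difference was -1.83 (SE 1.09, 95% interval -4.12 to 0.46, limma adjusted p = 0.981), and without Recurring replicate 1 it was -0.32. Homer1 made up 67.6% ± 11.5 of the family per exon kilobase in Day 0 and 43.8% ± 28.7 in the Recurring group (SD, n = 4), with 3.99% in Recurring replicate 1, where Homer2 held 96.0%. That library was also the highest in astrocyte markers, with 21761 normalized counts in sum over 13 markers, none of them at 0, against 3673 to 13861 in the other libraries, and the part of this in the Homer1 value was not tested.

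**Figure D3:**
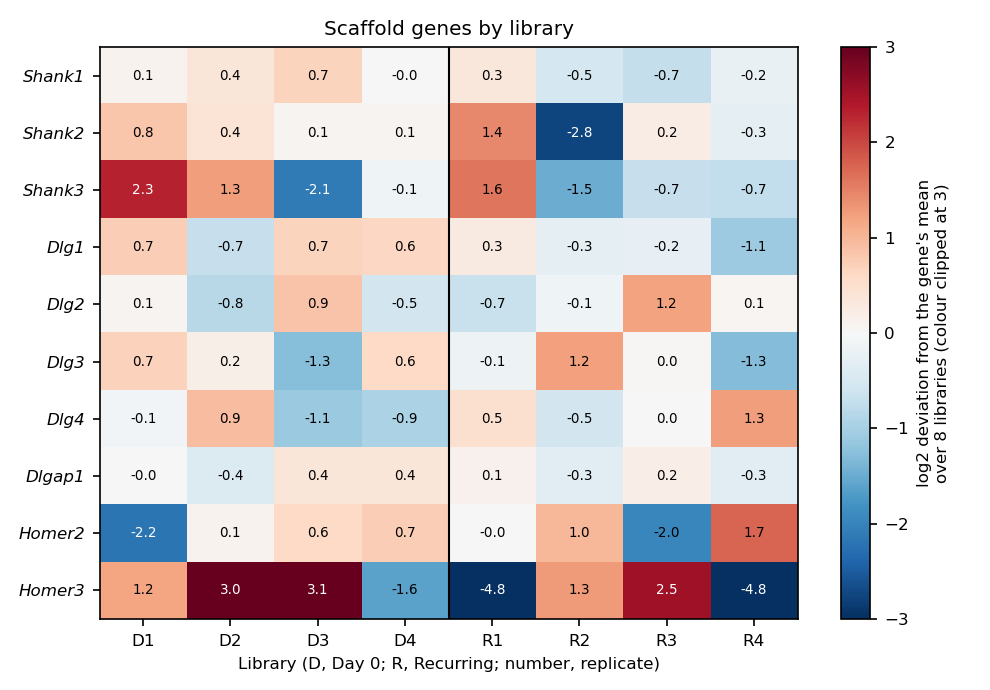
The heat map gives, for the 10 scaffold genes in rows and the 8 libraries in columns, the log2 deviation from the gene's mean over the libraries (red above, blue below). No library is high or low for every gene: 3 to 6 of the 10 genes are above their own median in each.

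Across libraries the 10 genes did not move as a block. In the 4 Day 0 libraries 5 or 6 of the 10 genes stood above their own median over the 8 libraries. In Recurring replicates 1 to 4 the counts were 6, 3, 5 and 3. The highest library of a gene was a Day 0 library for 5 genes and a Recurring library for 5 genes. The lowest was a Day 0 library for 5 genes and a Recurring library for 5 genes. Recurring replicate 1 stood 0.34, 1.44 and 1.61 log2 units above the mean for Shank1, Shank2 and Shank3, while for Dlg2 it deviated by -0.68.

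**Figure D4:**
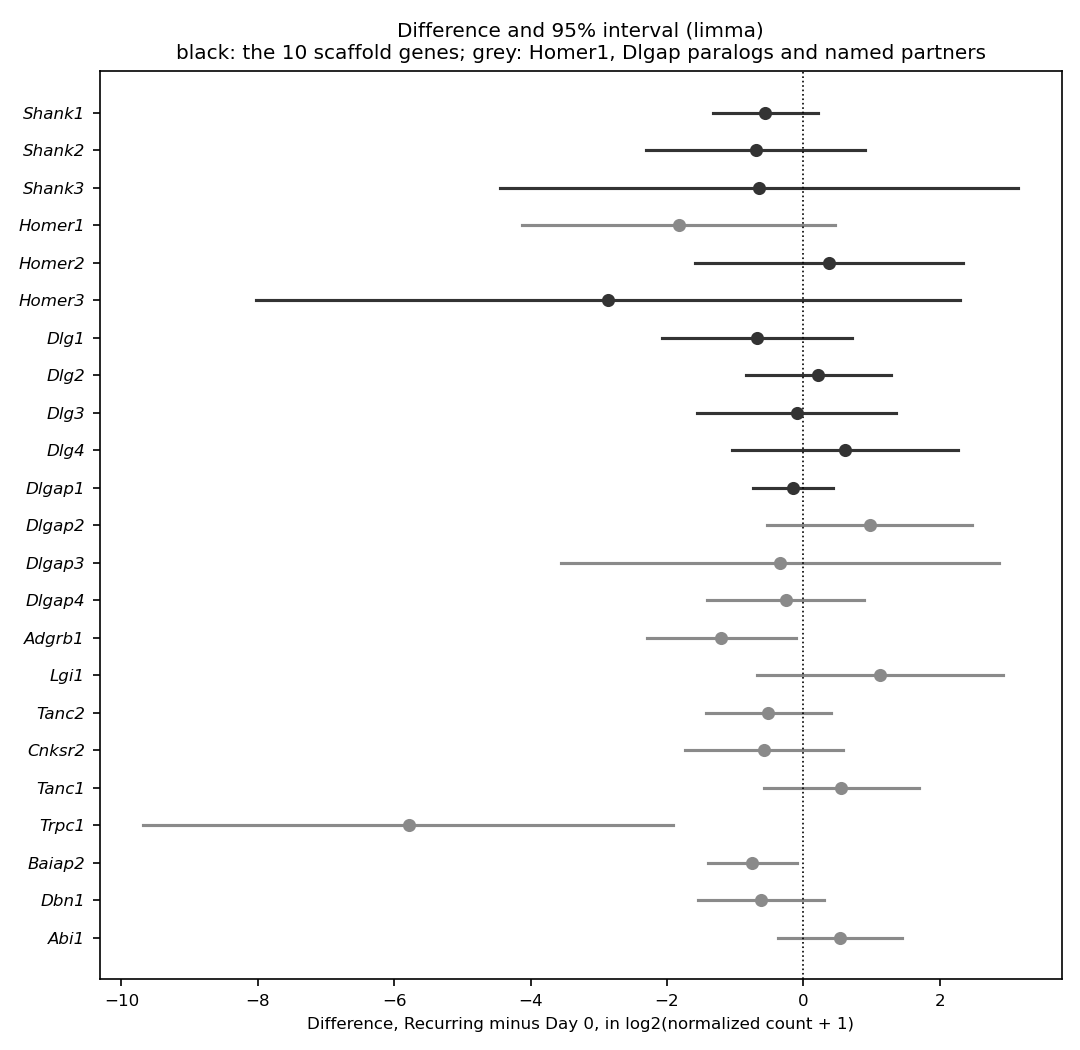
Points give the difference, Recurring minus Day 0, in log2(normalized count + 1), with limma's 95% interval, for the 10 scaffold genes (black) and for Homer1, the other Dlgap genes and the named partners (grey). All black intervals cross 0, and of the grey ones those of Adgrb1, Trpc1 and Baiap2 do not, before adjustment and with all 8 libraries.

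Precision differed widely among the 10 genes and was not the same as over the whole table. The standard error ran from 0.28 for Dlgap1 to 2.44 for Homer3, with a median of 0.73, against 1.78 over all tested genes. By mean log2 level, Dlgap1 ranked 62, Shank1 290 and Dlg2 596 of 11078 genes, while Shank3 ranked 6492 and Homer3 8717. The intervals therefore left room for sizeable differences in most genes. For Shank1 the interval ran from 0.400 to 1.15 times the Day 0 level, for Dlg2 from 0.558 to 2.44 times, for Dlg4 from 0.485 to 4.80 times and for Shank3 from 0.0456 to 8.91 times.

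Among binding partners of the 4 families there was no call either. The list of Dlg and Dlgap partners had 27 tested members of 29, of which 11 had a higher and 16 a lower mean in Recurring cells, 0 were called and the median difference was -0.13. In the list of Shank and Homer partners, which includes Homer1, 21 of 21 were tested, 8 had a higher and 13 a lower mean, 0 were called and the median was -0.17. Over both lists 3 of 48 genes were at an unadjusted p under 0.05, where the share over all tested genes was 3.62%. All 3 had lower means in Recurring cells, the direction of 1.74% of all tested genes.

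Baiap2, which encodes IRSp53, a partner of both Shank and PSD-95 that shapes the actin of spines, was the only one of the 48 whose groups did not overlap. It stood at 6453, 8381, 5045 and 7806 normalized counts in Day 0 and at 3496, 4297, 4051 and 4349 in Recurring cells. The lowest Day 0 library lay above the highest Recurring library, as in 1.17% of all tested genes. The log2 means were 12.73 ± 0.33 and 11.98 ± 0.14 (SD, n = 4), a difference of -0.75 (SE 0.31, 95% interval -1.40 to -0.10, unadjusted p = 0.0256, limma adjusted p = 0.981). As each library was left out the difference stayed between -0.90 and -0.65, with an unadjusted limma p of 0.0842 without Day 0 replicate 2 and 0.0647 without Day 0 replicate 4.

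Trpc1, a cation channel subunit that binds Homer, had the widest gap. It stood at 1690, 949, 1079 and 947 normalized counts in Day 0 and at 0, 9.69, 1068 and 14.2 in Recurring cells. The groups overlapped because Recurring replicate 3 was as high as the Day 0 libraries. The difference was -5.79 (SE 1.84, unadjusted p = 0.0059, limma adjusted p = 0.981). With 1 library at 0 its size depended on the settings, at -4.58 with a pseudocount of 10, -4.16 with library weights, -4.35 without Recurring replicate 1 and -7.72 without Recurring replicate 3. Adgrb1, an adhesion receptor that binds PSD-95, stood at 2445, 2321, 1927 and 3443 in Day 0 and at 2277, 1070, 537 and 1014 normalized counts in Recurring cells. Recurring replicate 1 again lay inside the Day 0 range, and the difference was -1.21 (SE 0.52, unadjusted p = 0.0334, limma adjusted p = 0.981). The unadjusted limma p was over 0.05 without any 1 of 5 libraries and reached 0.106 without Recurring replicate 3.

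The other partners named here, from those with the smallest p in each list, had intervals that crossed 0. Among Dlg and Dlgap partners, Lgi1, a secreted protein of the synaptic cleft, differed by 1.12 (SE 0.85). Tanc1 and Tanc2, large scaffolds that bind PSD-95, differed by 0.55 (SE 0.54) and -0.52 (SE 0.43), and Cnksr2, a scaffold of Ras signalling, by -0.58 (SE 0.55). Among Shank and Homer partners, the actin-binding gene Dbn1 differed by -0.62 (SE 0.44) and Abi1, of actin nucleation, by 0.54 (SE 0.43).

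**Figure D5:**
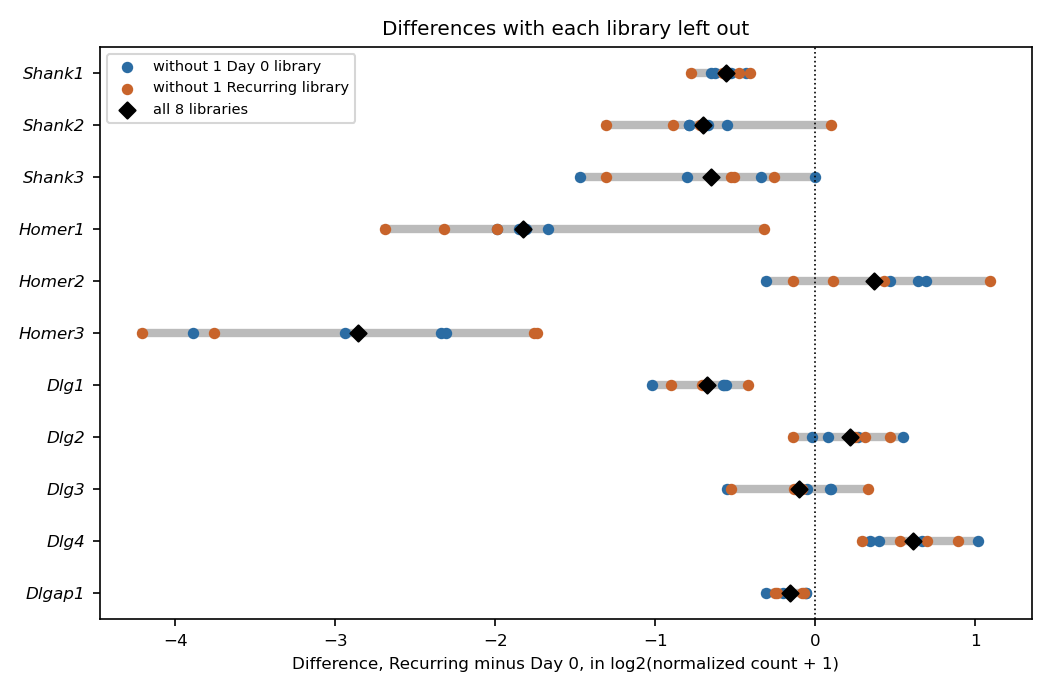
For each of the 10 scaffold genes and Homer1 the plot gives the difference, Recurring minus Day 0, in log2(normalized count + 1), with all 8 libraries (diamond) and with each library left out (points, coloured by the group of that library). Shank1, Dlg1, Dlgap1, Homer3 and Homer1 stay below 0 and Dlg4 above it throughout, while Shank2, Dlg2, Dlg3 and Homer2 cross 0. Shank3 also stays below 0, but reaches -0.004.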

How the data were processed

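Per the labels' protocols, nuclear RNA was made into libraries by SMART-Seq mRNA LP. STAR, HTSeq and the genome build GRCm39 are named in the submitters' processing notes, with no versions. The deposited signal is reads per gene multiplied by 1 constant per gene, with no depth correction and no log transform. This was found from the values: the constants followed trimmed mean factors in which genes had been treated as libraries, to 0.1% for 15516 of 15519 genes, and dividing them out gave whole reads (tolerance 0.1 read) for 95910 of 95910 values above 0. Each constant was chosen among those that gave whole reads, as the closest to its factor, so these counts follow in part from that choice. Recovery and fit were tested on simulated data. The recovery test scaled its reads by the same rule that the recovery inverts. The fit test gave every gene the same spread, so it does not cover the uneven spread of these libraries.

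To correct for depth, reads were scaled by median-of-ratios size factors. The 11078 genes that reached 10 normalized counts in 4 libraries were fitted with limma 3.58.1 in R 4.3.3 on log2(normalized count + 1), with a variance trend and Benjamini-Hochberg adjustment over all of them. For library measures a 2-sided exact permutation test used all 70 assignments, with a smallest possible p of 0.0286. Replicates were numbered in deposit order and pair no libraries.

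The members, partner lists and tests were chosen with earlier results of these data known. Named genes were the 10 members, Homer1, the other Dlgap genes and the 6 tested partners per list with the smallest unadjusted p. One of those partners is not reported here. Overlaps and exon lengths came from GENCODE M21. Prr7 was not analysed here, and Nos1 was below the filter. Alternatives were other size factors, no depth correction, other pseudocounts, no filter, no variance trend, voom, library weights, a term for the libraries' Xist pattern and leaving out each library.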

Additional observations from a re-analysis of the deposited data

Results flagged for a closer look

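Among the 24 named genes in each group of 4 libraries, 48 groups in all, 2 libraries stood apart by Dixon's criterion for 4 samples, where chance marks about 1 group in 20. Dlg1 in Day 0 replicate 2 was at 8.93 in log2(normalized count + 1), below the 10.24 to 10.35 of the other 3 Day 0 libraries. Lgi1 in Recurring replicate 4 was at 8.69, below the 10.51 to 10.89 of the other 3 Recurring libraries.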

How the results depend on the processing

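No scaffold gene was called under any alternative, and the lowest adjusted p of one was 0.913 over all of them. Limma without a variance trend called 2 genes of the table, neither of them a scaffold or listed partner, and the other alternatives called 0. Of 100 values of the 10 genes under the 10 alternatives that kept all libraries, 97 kept their direction. The other 3 were Dlg3 at 0.0017 with the deposited values as they stand, and Dlgap1 at 0.08 and Homer2 at -0.02 with library weights. The cause was not tested. No filter, no variance trend and the Xist term leave a gene's difference as it is. The values under these settings were thus bound to keep their direction. As each library was left out, 8 of 80 values changed direction. The ranges were -1.31 to 0.10 for Shank2, -0.14 to 0.55 for Dlg2, -0.55 to 0.33 for Dlg3, -0.31 to 1.09 for Homer2 and, among the partners, -0.80 to 0.04 for Dlgap3. Over those fits 6 to 8 of the 10 genes had a lower mean in Recurring cells. The median difference of all tested genes was 0.13 without Recurring replicate 1 and -0.15 without Day 0 replicate 4. In Shank1 the unadjusted limma p was 0.0369 with library weights and 0.0478 without Recurring replicate 1. That p was 0.321 without depth correction and 0.38 without a variance trend, where the SE of Shank1 was 0.6 against 0.36 with the trend. Unadjusted p-values of Adgrb1 and Baiap2 were 0.098 and 0.107 without depth correction, and 0.114 and 0.225 without a variance trend. Tests of edgeR and DESeq2 were not run, and voom was the test run on the recovered reads. No paired analysis was possible because each library's title names a different mouse, and the replicate numbers only follow deposit order. Shank3 and Homer3 are limited by their low reads, down to 17 and 0 in a library.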

Other observations

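Dlg3 is X-linked, and in 4 libraries Xist had more reads than 4 Y-linked genes together (Ddx3y, Uty, Kdm5d and Eif2s3y), while in the other 4 it had fewer, with 2 of each kind in either group. Xist reads were 9072 to 15633 in the former, which had 0 reads of those Y-linked genes, and 0 to 67 in the latter. This grouping comes from the data, not from the labels. Dlg3 stood at 863 to 2233 normalized counts in the 4 libraries with high Xist and at 382 to 1442 in the 4 others, so the ranges overlapped. In that order the log2 means were 10.4 ± 0.601 and 9.4 ± 0.96 (SD, n = 4), and this gap was not tested. A term for this pattern could not move the difference of -0.10 between Recurring and Day 0 cells, since each group held 2 libraries of each kind. With the term the SE of that difference was 0.66, against 0.69 without it.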
